A study of Mus musculus with 24 samples.

Results

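Skin grafts taken 28 days after grafting (28 dpg) were compared between 2 donor genotypes. The grafts came from donors labelled CD1dKOxE7 (3 libraries) and from E7 donors (3 libraries), which made 6 of the 24 libraries and 2 of the 8 groups of the series. The libraries were taken by their titles, so no expression value entered the choice. Both donors carried the K14E7 transgene, the E7 oncogene of human papillomavirus 16 behind the keratin 14 promoter, which is active in basal keratinocytes. The CD1dKOxE7 donors (labelled CD1dKOxK14E7) were in addition knockout for CD1d. All 6 grafts were ear skin on C57BL/6 recipients, whose own cells in a graft carry no transgene and an intact Cd1d1 gene. The age of the graft donors, the part of Cd1d1 that is deleted, and whether libraries of a group came from separate animals are stated nowhere in the labels, and p-values therefore measure the spread between these libraries only. The E7 libraries were read on lane 1 and the CD1dKOxE7 libraries on lane 2 of one flow cell, so lane and donor cannot be told apart.

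CD1d is a surface molecule related to MHC class I that displays lipids instead of peptides. Natural killer T (NKT) cells recognise these lipids through a restricted T cell receptor and release interferon gamma and other cytokines within hours of activation. In skin, CD1d is carried by keratinocytes as well as by macrophages and dendritic cells. Interferon gamma in turn switches on guanylate-binding proteins (Gbp), immunity-related GTPases (Irgm, Igtp, Iigp), the T cell attractants Cxcl9 and Cxcl10, and MHC genes. E7 inactivates the retinoblastoma protein, which releases E2F factors and drives keratinocytes through the cell cycle.

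The 6 libraries held 6920288 to 9241245 counts, and 3 counts in a library equalled 0.325 to 0.434 CPM, the TMM-normalised measure of level used throughout. Mitochondrial genes took 1.485 to 1.886% of counts. Replicate 3 of CD1dKOxE7 stood apart. Over 16189 genes its root mean square log2 distance to the other 5 libraries was 0.538 to 0.622, against 0.366 to 0.510 among those 5. It lay 0.529 from the mean of the E7 grafts of the same day, 0.594 from the mean of the 2 other CD1dKOxE7 libraries and 0.611 from that of the CD1dKOxE7 grafts at 14 dpg. Values are therefore given library by library, and calls for 3 against 3 libraries and, where stated, for 2 against 3, without that library. The labelled tissue matched its markers: 5 keratinocyte markers (Krt5, Krt14, Krt1, Krt10, Trp63) summed to 41410 to 46790 CPM in E7, and to 46960, 52490 and 30090 CPM in CD1dKOxE7 replicates 1, 2 and 3. Summed CPM of 4 T cell markers was 21.1 to 29.0 in E7 and 34.9, 34.3 and 75.6 in CD1dKOxE7. Summed CPM of 4 macrophage markers was 388 to 507 in E7 and 369, 443 and 861 in CD1dKOxE7. Replicate 3 thus had the lowest keratinocyte sum and the highest T cell and macrophage sums of the 6. Not every marker followed: Krt14 was highest in replicate 3, and the Langerhans cell marker Cd207 was lowest there. Neutrophil markers (3, summed) were at 35.0, 39.1 and 32.9 CPM in E7 and at 33.5, 40.7 and 36.3 CPM in CD1dKOxE7. Cartilage markers (4, summed) were at 144, 129 and 3.64 CPM in E7 and at 75.8, 91.8 and 3.44 CPM in CD1dKOxE7, low in replicate 3 of both groups. In a bulk sample, fewer cells of a type and less RNA per cell cannot be told apart, and this holds for every cell type list below.

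Reads of the E7 transgene were present in all 6 grafts and at 0 counts in every C57BL/6 graft. They stood at 25.8, 34.4 and 27.2 CPM in E7, and at 44.3, 44.5 and 18.6 CPM in CD1dKOxE7. Replicates 1 and 2 lay above every E7 library and replicate 3 below all of them, so the groups overlapped. At 14 dpg the transgene was at 20.1, 17.5 and 23.2 CPM in CD1dKOxE7 and at 33.7, 40.4 and 38.6 CPM in E7, so that replicate 3 of 28 dpg lay within the range of its genotype at 14 dpg. The log2 difference between the groups was 0.30 ± 0.32 (SE; adjusted p = 0.802), and 0.61 ± 0.12 without replicate 3 (adjusted p = 0.0369). Krt14, whose promoter drives the transgene, was at 6282, 6901 and 7679 CPM in E7 and at 6484, 7459 and 7730 CPM in CD1dKOxE7, 2 ranges that overlapped.

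Cd1d1 (Entrez 12479, chr3:86995834-87012358 of GRCm38, the build also called mm10) was at 26.2, 21.6 and 23.2 CPM in E7. In CD1dKOxE7 it was at 5.36, 4.45 and 14.5 CPM, or 22.6, 18.8 and 61.4% of the E7 mean. All 3 libraries lay below every E7 library, yet replicate 3 lay nearer to E7 than to its own group. The log2 difference of -1.55 ± 0.42 did not pass (adjusted p = 0.326), whereas that of replicates 1 and 2 alone did (-2.26 ± 0.17, adjusted p = 0.000313). The counts do not show which exons the remaining reads cover. Cd1d2, the second mouse CD1d gene, held 17, 10 and 9 counts in E7 and 6, 4 and 9 in CD1dKOxE7, too few to be tested at this depth.

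Ccnb1ip1 and 1810037I17Rik separated the donors in every library at both days, as did Rps3a1 and Fgfbp3 (below). Ccnb1ip1 (Entrez 239083, chromosome 14), a ubiquitin ligase linked to cyclin B and meiotic crossing over, had 0 counts in all 6 E7 grafts and all 6 C57BL/6 grafts. It had 35, 20 and 21 counts in CD1dKOxE7 at 28 dpg (3.83, 2.62 and 2.77 CPM) and 46, 21 and 43 at 14 dpg. Against a floor of 3 counts over the E7 group it was at least 23.9-fold higher at 28 dpg. It did not pass 3 against 3 (adjusted p = 0.105) and did without replicate 3 (adjusted p = 0.00828). The Riken gene 1810037I17Rik (Entrez 67704, chr3:122924397-122926194) was at 4.27, 3.55 and 3.51 CPM in E7 and at 27.4, 30.0 and 23.1 CPM in CD1dKOxE7, and at 22.5, 26.1 and 25.6 CPM in CD1dKOxE7 grafts at 14 dpg. For Ccnb1ip1 and 1810037I17Rik replicate 3 was close to its own group. Rps3a1, a ribosomal protein gene 0.853 Mb from Cd1d1, was at 135, 137 and 137 CPM in E7 and at 28.3, 27.0 and 77.5 CPM in CD1dKOxE7. At 14 dpg it was at 74.4, 59.2 and 59.5 CPM in CD1dKOxE7 and at 132, 135 and 104 CPM in E7, so replicate 3 stood apart from its own group and close to the same genotype at 14 dpg. Mid1, an X-linked gene at the pseudoautosomal boundary, put replicate 3 between the groups at 61.7, 60.1 and 73.7 CPM against 19.9, 19.4 and 48.1 CPM, as did Erdr1 beside it (33.7, 34.8 and 30.5 CPM against 2.62, 3.28 and 16.6 CPM). Rps3a1, Mid1 and Erdr1 passed without replicate 3 (log2 -2.30 ± 0.08, -1.73 ± 0.12 and -3.49 ± 0.16) and did not pass with it. These genes were chosen after their values were seen, and Rps3a1 and Erdr1 have near-identical copies that make their counts uncertain.

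**Figure D1:**
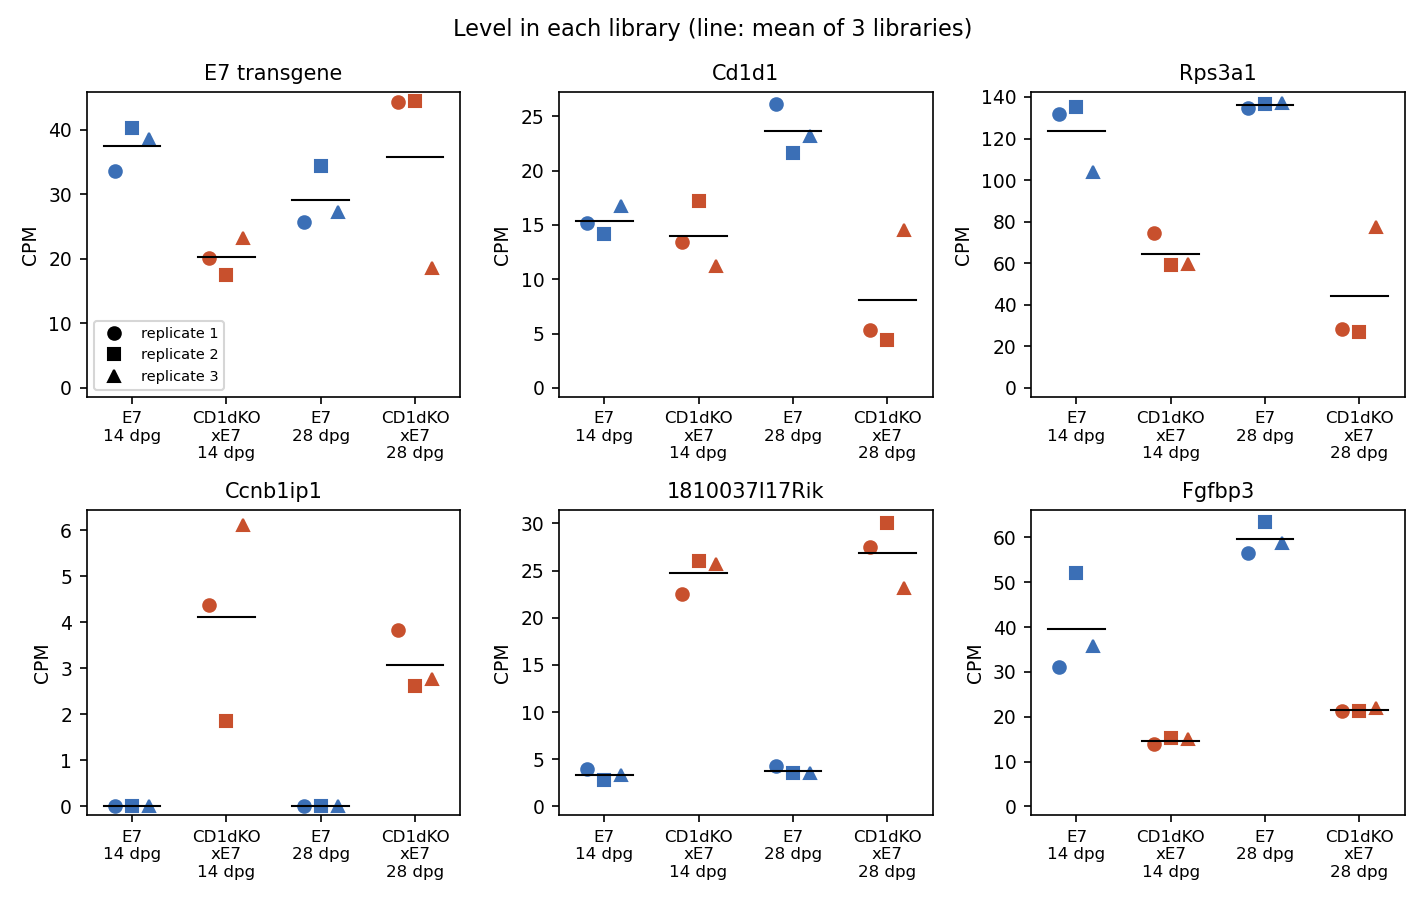
Level in CPM (y axis, linear) of the E7 transgene and 5 genes in each library of 4 graft groups (x axis: donor and day); circles, squares and triangles are replicates 1, 2 and 3, and lines are means of 3 libraries. Replicate 3 of CD1dKOxE7 at 28 dpg lies apart from replicates 1 and 2 for E7, Cd1d1 (14.5 against 5.36 and 4.45 CPM) and Rps3a1 (77.5 against 28.3 and 27.0 CPM), and beside them for Ccnb1ip1, 1810037I17Rik and Fgfbp3.

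Of 15322 genes tested 3 against 3, 3 passed (0.0196%): 2 rose (0.0131%) and 1 fell (0.00653%). At an unadjusted p below 0.05 there were 1520 genes (9.92%). The genes that rose were 1810037I17Rik (log2 2.82 ± 0.16, 7.07-fold, adjusted p = 0.00282) and Sprr2h (log2 1.33 ± 0.09, 2.51-fold, adjusted p = 0.00586). Sprr2h (Entrez 20762, chr3:92385685-92387324) encodes a small proline-rich protein that is cross-linked into the cornified envelope of stressed or wounded epidermis. It was at 52.9, 55.5 and 45.9 CPM in E7 and at 128, 135 and 124 CPM in CD1dKOxE7, a gap several times the spread within either group. At 14 dpg Sprr2h was not raised: it was at 207, 185 and 220 CPM in CD1dKOxE7 and at 311, 242 and 211 CPM in E7, with overlap. The gene that fell was Fgfbp3 (Entrez 72514, chr19:36917550-36919599), which encodes a carrier protein that binds fibroblast growth factors. It was at 56.5, 63.5 and 58.8 CPM in E7 and at 21.2, 21.4 and 21.9 CPM in CD1dKOxE7 (log2 -1.47 ± 0.08, 2.77-fold lower, adjusted p = 0.00282). The CD1dKOxE7 level of Fgfbp3 was closer to that of C57BL/6 grafts at 28 dpg (14.3, 13.7 and 14.6 CPM) than to that of E7 grafts. In the CD1dKOxE7 grafts at 14 dpg it was at 13.9, 15.2 and 15.0 CPM, again under the E7 grafts of that day (31.2, 52.0 and 35.7 CPM). None of the 3 overlapped between groups, and all 3 also passed without CD1dKOxE7 replicate 3. Other single libraries decided calls too. Without E7 replicate 2 no gene passed edgeR's quasi-likelihood test (adjusted p = 0.0551 for each of the 3), with 924 genes at an unadjusted p below 0.05, and Sprr2h also missed the threshold without E7 replicate 1 (adjusted p = 0.106) and without CD1dKOxE7 replicate 2 (adjusted p = 0.0532). On all 6 libraries DESeq2 called 200 genes and limma voom with sample quality weights 264.

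Without replicate 3, 575 of 15512 genes passed (3.71%), 279 higher (1.80%) and 296 lower (1.91%) in CD1dKOxE7. The biological coefficient of variation was 0.161 with that library and 0.103 without it. Of the 575, 574 were tested 3 against 3 and 567 had the same sign there. Replicate 3 lay on the same side of the E7 mean in 349, and in 281 it lay within the E7 range or beyond it on the other side. No overlap between all 3 libraries and the E7 libraries was seen in 2473 of 15322 genes (16.1%), 1174 above (7.66%) and 1299 below (8.48%). Replicates 1 and 2 without replicate 3 lay above all E7 libraries in 1808 genes (11.8%) and below in 1648 (10.8%). Replicate 3 alone did so in 1554 (10.1%) and 1659 (10.8%). The replicate 3 counts, here and in the lists below, left out genes with replicates 1 and 2 both beyond E7 on the other side. These shares over all genes are the background for the counts of list members below.

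**Figure D2:**
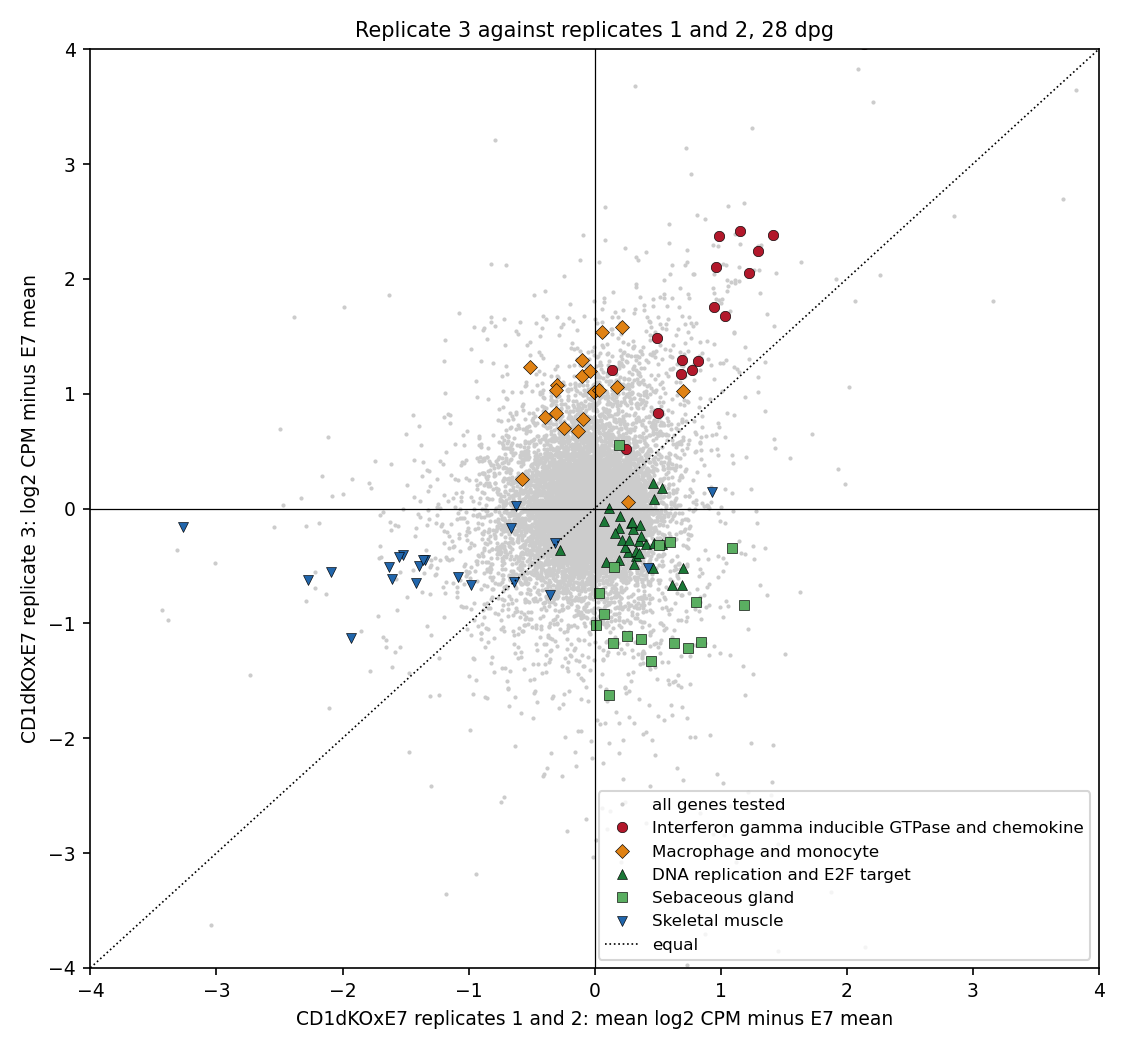
Each point is a gene. The x axis is the mean log2 CPM of CD1dKOxE7 replicates 1 and 2 minus the mean of the 3 E7 libraries. The y axis is the same for replicate 3, and the dotted line marks equal values. Beyond 4 log2 units 7 genes are not drawn, among them Cxcl9 of the interferon gamma list (4.04 in replicate 3). Interferon gamma-induced genes lie at the upper right, skeletal muscle genes mostly at the left, macrophage genes above 0 on the y axis and on both sides of 0 on the x axis, and most DNA replication and sebaceous genes at the lower right.

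The promoters of 4 genes that were above E7 in all 3 CD1dKOxE7 grafts are shown, 2 epidermal Sprr genes and 2 interferon gamma-induced Gbp genes. Each is the 250 bases before the RefSeq start on GRCm38.p6, written 5′ to 3′ on the gene's strand. They are Sprr2h (chr3:92385435-92385684, plus strand), Sprr1b (chr3:92438780-92439029, minus strand), Gbp2 (chr3:142620413-142620662, plus strand) and Gbp5 (chr3:142496684-142496933, plus strand). Capitals mark TGANTCA (the AP-1 motif, searched with any base as N) and TATAAA in the Sprr promoters. In the Gbp promoters they mark the core of the interferon response element (GAAA, any 2 bases, GAAA). All motifs were searched on both strands.
Sprr2h: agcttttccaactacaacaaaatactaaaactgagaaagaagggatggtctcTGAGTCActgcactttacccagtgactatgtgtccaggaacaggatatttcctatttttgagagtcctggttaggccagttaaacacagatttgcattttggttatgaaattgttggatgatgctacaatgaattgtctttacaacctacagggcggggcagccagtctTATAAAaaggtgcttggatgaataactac
Sprr1b: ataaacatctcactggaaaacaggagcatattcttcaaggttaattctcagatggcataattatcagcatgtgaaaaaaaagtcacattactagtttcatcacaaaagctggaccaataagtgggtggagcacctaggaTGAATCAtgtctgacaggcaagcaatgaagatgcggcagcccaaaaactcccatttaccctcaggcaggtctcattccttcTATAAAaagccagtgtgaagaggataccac
Gbp2: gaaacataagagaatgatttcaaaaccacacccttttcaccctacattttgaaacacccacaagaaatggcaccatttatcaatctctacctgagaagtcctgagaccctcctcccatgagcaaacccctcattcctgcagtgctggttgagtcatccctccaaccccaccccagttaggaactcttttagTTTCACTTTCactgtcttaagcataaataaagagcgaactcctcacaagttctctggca
Gbp5: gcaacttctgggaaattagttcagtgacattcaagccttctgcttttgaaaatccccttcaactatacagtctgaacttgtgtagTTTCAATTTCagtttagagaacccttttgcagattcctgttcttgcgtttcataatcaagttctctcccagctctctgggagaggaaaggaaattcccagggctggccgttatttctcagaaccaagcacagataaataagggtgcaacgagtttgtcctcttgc
Both Sprr promoters held 1 AP-1 motif and 1 TATAAA that began 29 or 30 bases before the start, and both Gbp promoters held 1 interferon response element core. The Gbp2 promoter also held 1 TGANTCA, left in lower case, so that motif was not particular to the Sprr promoters. Of all 32851 windows of this length, 6.75% held TGANTCA, 12.4% TATAAA and 2.98% the interferon response element core. A promoter was found for 11 members of the interferon gamma list, of which 9 held the core (3.04% of 27025 genes, first start of each) and 3 TGANTCA, and for 12 members of the wound-associated list, of which 5 held TGANTCA (6.87%). Such matches are a description of letters, and binding was not measured.

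The interferon gamma-induced genes were higher in all 3 CD1dKOxE7 grafts. Of 18 listed, 17 were tested, and in 17 of 17 all 3 CD1dKOxE7 libraries lay above all E7 libraries (7.66% over all genes). None passed 3 against 3, and 10 passed without replicate 3, all higher (1.80% over all genes). Their median log2 difference was 1.27, and 0.95 without replicate 3, against 0.00 and -0.01 over all genes. Mean log2 levels of the list relative to E7 were 0.99, 0.84 and 1.77 in CD1dKOxE7, highest in replicate 3, and 2.15, 2.59 and 2.89 in the CD1dKOxE7 grafts at 14 dpg.

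Among the GTPases, Gbp2 was at 90.5, 75.6 and 76.1 CPM in E7 and at 166, 154 and 418 CPM in CD1dKOxE7. Gbp5 was at 17.7, 16.8 and 16.6 CPM against 38.7, 37.7 and 91.8 CPM. Each CD1dKOxE7 library lay above all E7 libraries for both genes, and without replicate 3 both passed (log2 0.98 ± 0.09, adjusted p = 0.00143, and 1.16 ± 0.10, adjusted p = 0.000701). Irgm1 was at 100, 79.7 and 80.3 CPM in E7 and at 154, 150 and 210 CPM in CD1dKOxE7. Igtp (86.3, 63.9 and 61.2 against 145, 142 and 223 CPM), Irgm2 (84.4, 68.6 and 62.1 against 120, 124 and 164 CPM) and Iigp1 (131, 94.3 and 83.9 against 260, 216 and 419 CPM) had the same order, with replicate 3 highest. These 4 passed without replicate 3 (log2 0.76 to 1.21, adjusted p = 0.00731 to 0.0439) and not with it (adjusted p = 0.169 to 0.204). Gbp and Irgm genes belong to families with near-identical copies, so reads may be split between neighbours.

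Of the chemokines, Cxcl10 was at 56.6, 51.0 and 37.4 CPM in E7 and at 120, 115 and 226 CPM in CD1dKOxE7 (log2 1.28 ± 0.16 without replicate 3, adjusted p = 0.0117). Cxcl9 spanned a wider range, from 12.9 to 32.7 CPM in E7 and 107, 68.4 and 322 CPM in CD1dKOxE7, and passed neither way (adjusted p = 0.259 and 0.117). At 14 dpg it had stood at 777, 981 and 1222 CPM in CD1dKOxE7 and 38.6, 42.2 and 63.9 CPM in E7. Ifng itself was near the limit of these libraries, at 6, 4 and 3 counts in E7 and 13, 13 and 36 counts in CD1dKOxE7 (0.75, 0.57 and 0.38 CPM against 1.42, 1.70 and 4.76 CPM). It did not pass (log2 2.17 ± 0.62, adjusted p = 0.328; 1.43 ± 0.46 and 0.126 without replicate 3), although the groups did not overlap.

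Genes of the broader interferon response, which type I interferon also induces, had a median log2 difference of 0.32, and 0.37 without replicate 3. Of 30 tested, 11 were above E7 in all 3 libraries (7.66% over all genes) and 8 in replicates 1 and 2 only (11.8%). None passed 3 against 3 and 5 passed without replicate 3, all higher (1.80%). Ifit2, an inhibitor of viral translation, was at 33.9, 41.8 and 31.1 CPM in E7 and at 57.4, 62.1 and 53.5 CPM in CD1dKOxE7. Rsad2 (viperin) was at 50.5, 38.6 and 47.7 CPM against 66.0, 87.2 and 42.3 CPM, high in replicates 1 and 2 only. MHC class I presentation genes were above E7 in all 3 libraries in 9 of 16 tested, with a median log2 difference of 0.35 and none past the threshold in either fit. MHC class II genes had their highest level in replicate 3: H2-Aa was at 442, 466 and 554 CPM in E7 and at 607, 569 and 977 CPM in CD1dKOxE7, and the protease Ctss at 231, 276 and 274 against 320, 309 and 592 CPM (adjusted p = 0.475 and 0.488).

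T cell genes were low in all grafts of 28 dpg and highest in replicate 3. Of 19 tested, 9 lay above E7 in all 3 libraries (7.66% over all genes) and 3 in replicate 3 only (10.1%), and none passed 3 against 3. Mean log2 levels of the list relative to E7 were 0.59, 0.28 and 1.50, against 2.47, 2.54 and 2.69 in the CD1dKOxE7 grafts at 14 dpg. Cd8a, the coreceptor of cytotoxic T cells, was at 2.14, 2.84 and 1.88 CPM in E7 and at 6.89, 4.72 and 24.6 CPM in CD1dKOxE7, and was the only T cell gene that passed without replicate 3 (log2 1.35 ± 0.29, adjusted p = 0.0418). At 14 dpg it was at 73.1, 67.2 and 83.3 CPM in CD1dKOxE7 grafts. Its partner Cd8b1 was at 0, 0.43 and 0.88 CPM against 2.95, 1.57 and 7.79 CPM, and the costimulatory receptor Cd28 at 2.39, 2.98 and 1.76 against 5.47, 4.45 and 7.93 CPM (adjusted p = 0.335 and 0.265). Cd5, which dampens T cell receptor signals, was at 8.17, 10.2 and 8.90 against 13.7, 11.8 and 16.6 CPM. Cd4 overlapped (10.8, 11.2 and 17.2 against 16.9, 19.9 and 27.3 CPM), and Cd3e, a chain of the receptor complex of all T cells, was raised in replicate 3 alone (3.90, 4.40 and 5.64 against 4.70, 4.98 and 13.6 CPM).

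Cytotoxic genes did not move as 1 block. Of 11 tested, 6 lay above E7 in all 3 libraries (7.66% over all genes) and none passed either fit. The transcription factor Tbx21 (0.63, 0.14 and 1.25 against 2.73, 1.31 and 3.04 CPM), the chemokine Ccl5 (5.78, 6.96 and 7.65 against 12.7, 8.65 and 30.1 CPM) and the granule protein gene Nkg7 (3.14, 2.98 and 4.01 against 6.34, 4.19 and 19.8 CPM) were among those 6. The killing effectors were not: Gzmb was at 2.89, 3.69 and 5.14 CPM in E7 and at 4.81, 5.76 and 4.62 CPM in CD1dKOxE7. Prf1 (perforin) was at 1.89, 2.27 and 2.38 CPM against 0.98, 1.31 and 5.55 CPM, below E7 in replicates 1 and 2 and above it in replicate 3. Cxcr3, the receptor for Cxcl9 and Cxcl10, was at 2.51, 1.99 and 2.38 CPM against 4.15, 2.88 and 8.98 CPM (adjusted p = 0.448; 0.288 without replicate 3).

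Checkpoint and regulatory T cell genes were above E7 in all 3 libraries in 6 of 16 tested (7.66% over all genes). Cd274 (PD-L1), an interferon-induced ligand that restrains T cells, was at 51.8, 43.9 and 43.5 CPM in E7 and at 73.9, 65.2 and 78.7 CPM in CD1dKOxE7 (log2 0.65 ± 0.11, adjusted p = 0.170; 0.58 ± 0.11 and 0.0247 without replicate 3). The costimulator Icos was at 9.05, 9.80 and 9.16 CPM against 17.5, 14.1 and 24.6 CPM (adjusted p = 0.257; 0.0377 without replicate 3). Havcr2 (TIM-3) was at 9.05, 7.81 and 7.52 against 12.0, 10.6 and 14.5 CPM and passed neither fit. Ido1, which degrades tryptophan, was too low to be tested, and Arg1, which degrades arginine, was at 5.28, 8.24 and 6.90 CPM against 9.29, 7.86 and 30.9 CPM, highest in replicate 3.

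The list of NKT and natural killer (NK) cell receptors gave 12 tested genes, and none passed either fit. Of these, 2 lay above E7 in all 3 libraries (7.66% over all genes) and 1 below (8.48%). The list leaned up, with a median log2 difference of 0.84, and 0.23 without replicate 3, whereas its member Zbtb16 was lower. Zbtb16 (PLZF), the defining factor of NKT cells, was at 9.56, 5.54 and 5.52 CPM in E7 and at 3.50, 4.06 and 5.15 CPM in CD1dKOxE7, below every E7 library (log2 -0.70 ± 0.29, adjusted p = 0.495; -0.87 ± 0.31 and 0.150 without replicate 3). Zbtb16 is not restricted to NKT cells, so its level does not count them. Klrk1 (NKG2D) was at 7.67, 7.53 and 11.5 CPM against 17.7, 10.3 and 20.7 CPM, and Klre1 at 1.13, 0.71 and 1.38 CPM against 2.08, 1.57 and 4.62 CPM. Il12rb2, a subunit of the interleukin 12 receptor, went the other way at 24.0, 29.8 and 14.0 CPM against 15.7, 9.04 and 10.3 CPM, with overlap. Among 13 tested genes of lipid antigen loading and CD1d presentation, Cd1d1 was the only 1 that passed without replicate 3, and none passed with it.

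Macrophage genes were high in replicate 3. Of 19 macrophage and monocyte genes tested, 11 were above E7 in replicate 3 only (10.1% over all genes), none passed, and the median log2 difference was 0.31 with that library and -0.13 without it. The complement component C1qa was at 159, 201 and 185 CPM in E7 and at 138, 156 and 381 CPM in CD1dKOxE7. It was above E7 in replicate 3 but below it in replicates 1 and 2, and so was not among the 11. The haemoglobin scavenger receptor Cd163 was at 22.3, 36.1 and 20.4 CPM against 21.8, 28.3 and 58.7 CPM, and the mannose receptor Mrc1 at 101, 145 and 176 against 88.4, 104 and 322 CPM. Csf1r, the growth factor receptor of macrophages, was at 116, 173 and 162 against 112, 140 and 241 CPM. Complement genes followed, with 8 of 19 above E7 in replicate 3 only and C3 at 453, 410 and 469 CPM against 469, 591 and 927 CPM.

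Immunoglobulin transcripts were abundant in replicate 3, and Ighg1 was above E7 in the other two as well. Ighg1, the heavy chain of IgG1, had 4, 0 and 3 counts in E7 and 37, 18 and 704 counts in CD1dKOxE7 (0.50, 0 and 0.38 CPM against 4.04, 2.36 and 93.0 CPM). It had 9, 4 and 2 counts in the CD1dKOxE7 grafts at 14 dpg. It passed without replicate 3 (adjusted p = 0.0253) and not with it (adjusted p = 0.368). Igkc, the kappa light chain, was at 26.9, 5.82 and 12.0 CPM against 23.5, 10.2 and 162 CPM. Jchain, which joins secreted IgA and IgM, was at 9.93, 2.13 and 6.65 CPM against 15.5, 4.98 and 48.2 CPM, and Ighm at 71.3, 71.0 and 46.7 against 53.8, 56.5 and 147 CPM. Of the 7 B and plasma cell genes tested, 4 were above E7 in replicate 3 only (10.1% over all genes). Immunoglobulin constant genes are close copies of each other, and reads may be shared between them.

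**Figure D3:**
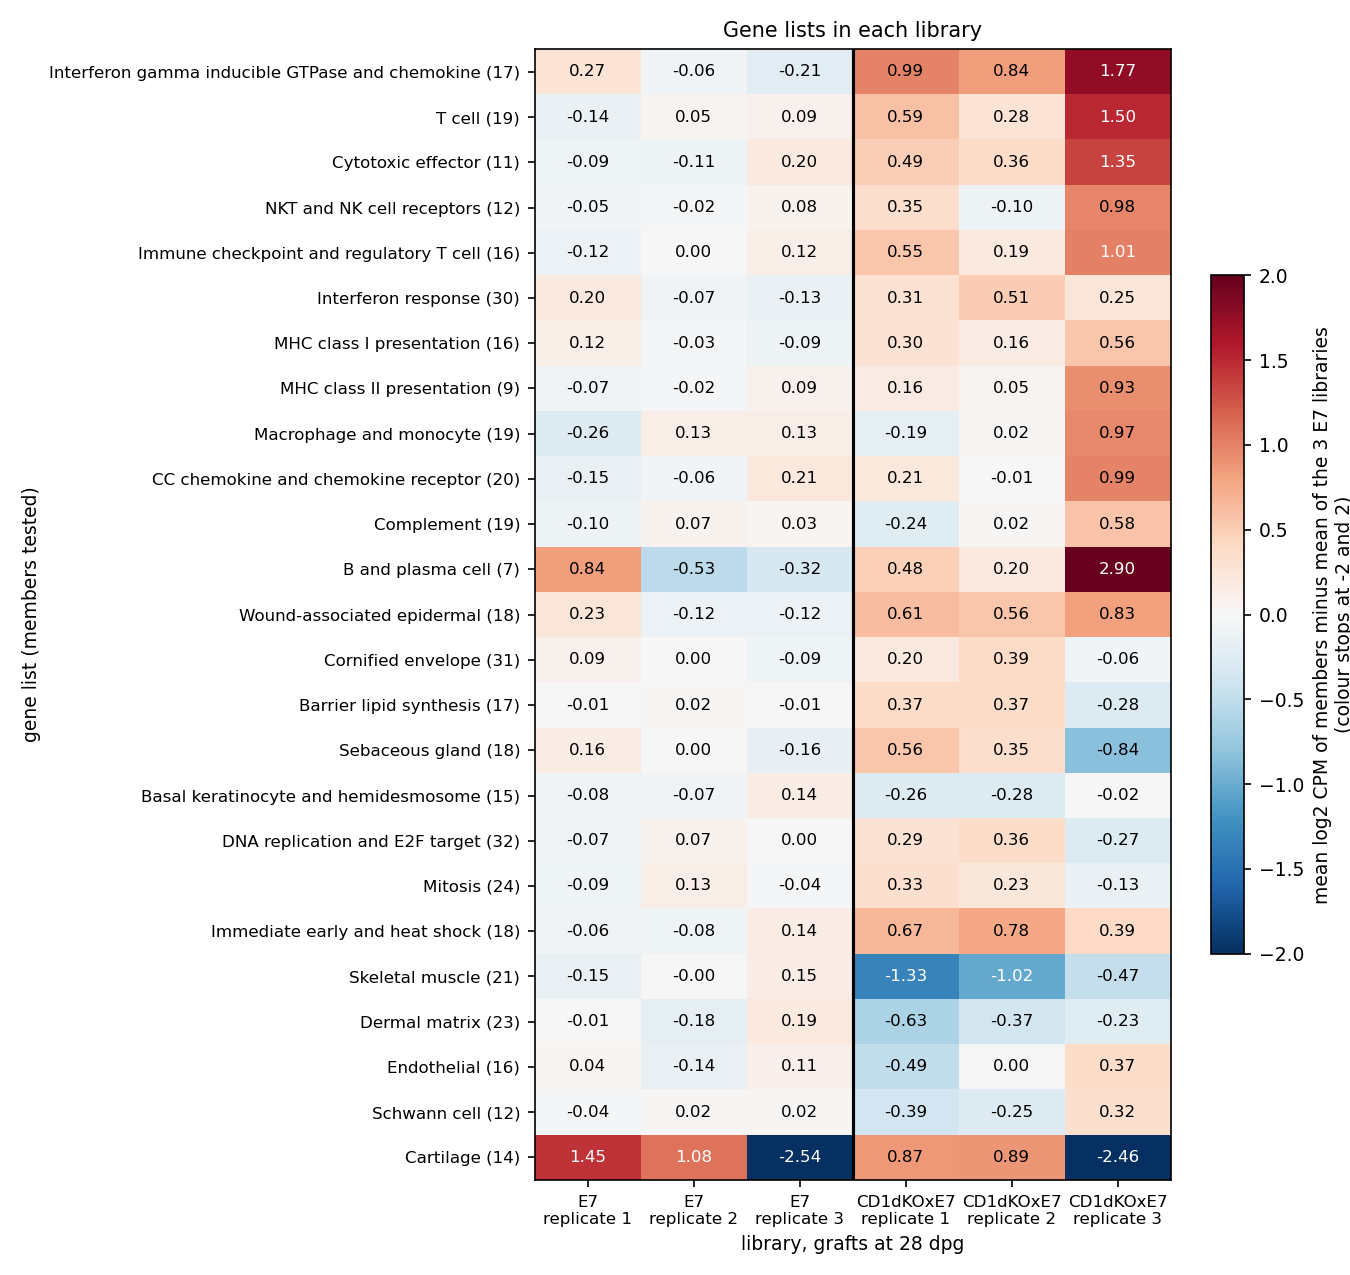
Each line is a gene list with the number of members tested, columns are the 6 libraries, and colour and number give the mean log2 CPM of the members minus the mean of the 3 E7 libraries. The interferon gamma list is positive in all 3 CD1dKOxE7 columns (0.99, 0.84 and 1.77), the macrophage list in replicate 3 (0.97 against -0.19 and 0.02), and skeletal muscle is negative in all 3 (-1.33, -1.02 and -0.47).

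Wound-associated epidermal genes were the only list with a member past the threshold 3 against 3. Of 18 tested, 7 lay above E7 in all 3 libraries (7.66% over all genes), and 6 passed without replicate 3, all higher (1.80%). The median log2 difference was 0.72, and 0.46 without replicate 3. Beside Sprr2h, Sprr1b was at 372, 333 and 399 CPM in E7 and at 652, 813 and 602 CPM in CD1dKOxE7 (log2 0.90 ± 0.13, adjusted p = 0.136; 0.99 ± 0.11 and 0.00496 without replicate 3). Hbegf, a ligand of the epidermal growth factor receptor, was at 33.4, 27.0 and 33.0 CPM against 73.7, 56.5 and 55.2 CPM (log2 0.99 ± 0.14, adjusted p = 0.136; 1.06 ± 0.14 and 0.00828 without replicate 3). Areg, another ligand of that receptor, was at 18.1, 16.3 and 20.3 CPM against 36.7, 32.1 and 18.2 CPM, higher in replicates 1 and 2 only. The wound keratins Krt16 (3310, 3420 and 3168 against 3787, 4462 and 4232 CPM) and Krt6a (1772, 1448 and 2081 against 1668, 2143 and 3701 CPM) passed neither fit.

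Of the other small proline-rich genes, Sprr2g was at 16.0, 13.6 and 18.8 CPM in E7 and at 32.4, 37.5 and 47.0 CPM in CD1dKOxE7, and Sprr1a at 1001, 881 and 850 against 1179, 1447 and 1237 CPM. Both passed without replicate 3 (log2 1.10 ± 0.14 and 0.52 ± 0.11) and not with it (adjusted p = 0.136 and 0.259). Not every Sprr gene had this order: Sprr2a1, Sprr2a2, Sprr2i and Sprr4 overlapped E7 (log2 0.17, 0.07, 1.35 and 0.19, none past the threshold in either fit). Sprr2 genes are near-identical copies, so single members are uncertain. Spink7, a protease inhibitor of squamous epithelium, was at 7.29, 9.23 and 4.77 CPM against 30.4, 28.7 and 24.6 CPM (log2 1.98 ± 0.23, adjusted p = 0.0697; 2.06 ± 0.21 and 0.00307 without replicate 3). Skint5, a relative of Skint1 (which selects the gamma delta T cells of the epidermis), was at 30.6, 36.2 and 37.4 CPM against 12.7, 10.2 and 14.4 CPM (log2 -1.48 ± 0.15, adjusted p = 0.0666; -1.60 ± 0.14 and 0.00105 without replicate 3). Skint6 of the same family was at 57.2, 55.0 and 60.4 CPM against 35.0, 30.4 and 23.4 CPM. None of these 3 overlapped between groups, and they were chosen after their values were seen.

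Cornified envelope genes did not share 1 direction. Of 31 tested, 7 lay above E7 in all 3 libraries (7.66% over all genes) and 2 below (8.48%), the latter near that share. Another 10 lay above in replicates 1 and 2 only (11.8%), and 9 below in replicate 3 only (10.8%). Without replicate 3, 4 passed higher (1.80%) and 2 lower (1.91%). Casp14, a protease that processes filaggrin, was at 298, 304 and 254 CPM in E7 and at 459, 418 and 362 CPM in CD1dKOxE7. Flg2, a filaggrin relative, was at 439, 516 and 489 CPM against 333, 278 and 322 CPM, and Lce1m at 100, 128 and 105 CPM against 59.0, 59.3 and 91.9 CPM, the 2 that were lower. Flg itself was at 2067, 1975 and 1708 CPM against 2429, 2317 and 1608 CPM. Krt1, the main keratin of the suprabasal layers, was at 14878, 16009 and 16457 CPM against 19208, 22065 and 9917 CPM. It lay above E7 in replicates 1 and 2 and below in replicate 3, and was counted among the 10. Krt2 varied within E7 too (1619, 2345 and 422 CPM) and was at 918, 828 and 21.4 CPM in CD1dKOxE7.

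Of 15 basal genes tested, 5 lay below E7 in all 3 libraries (8.48% over all genes) and 3 above E7 in replicate 3 only (10.1%). None passed 3 against 3 and 3 passed without replicate 3, all lower (1.91%). The median log2 difference was -0.24, and -0.29 without replicate 3. Krt15, a basal keratin of follicle and interfollicular epidermis, was at 546, 742 and 632 CPM in E7 and at 359, 294 and 665 CPM in CD1dKOxE7, low in replicates 1 and 2 only. Krt5 overlapped (4961 to 6421 against 4597 to 5118 CPM). Langerhans cells, the dendritic cells of the epidermis, are marked by Cd207, which was at 16.7, 19.6 and 15.8 CPM against 8.53, 12.8 and 6.47 CPM without overlap (log2 -0.90 ± 0.24, adjusted p = 0.322; -0.71 ± 0.20 and 0.0793 without replicate 3). The dendritic and Langerhans cell list to which it belongs leaned the other way, with a median log2 difference of 0.37, and 0.17 without replicate 3. Of 14 tested, 2 lay above E7 in all 3 libraries (7.66% over all genes), 1 below (Cd207, 8.48%) and 3 above in replicate 3 only (10.1%). Without replicate 3, 1 passed, higher (1.80%). Ccl27a, a keratinocyte chemokine for skin-homing T cells, was at 60.6, 69.2 and 56.2 CPM against 43.7, 29.7 and 46.9 CPM (adjusted p = 0.328; 0.0566 without replicate 3).

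Lipid genes went opposite ways in the CD1dKOxE7 grafts. Of 18 sebaceous gland genes tested, 10 lay above E7 in replicates 1 and 2 only (11.8% over all genes). Another 7 lay below E7 in replicate 3 only (10.8%). Far2, Awat1, Dgat2l6 and Elovl3, counted among the 10, also lay below E7 in replicate 3. Without replicate 3, 8 passed, all higher (1.80%). Far2, a fatty alcohol-forming reductase, was at 262, 234 and 213 CPM in E7 and at 460, 390 and 105 CPM in CD1dKOxE7. The wax and diacylglycerol acyltransferases Awat1 (51.2, 44.6 and 42.3 against 113, 85.0 and 36.1 CPM) and Dgat2l6 (21.9, 17.3 and 19.1 against 53.1, 36.9 and 10.7 CPM) had the same order, as did the elongase Elovl3 (253, 218 and 199 against 444, 339 and 126 CPM). Barrier lipid genes did likewise, with 10 of 17 above E7 in replicates 1 and 2 only and 6 past the threshold without replicate 3. Elovl4, which makes the very long acyl chains of skin ceramides, was at 1379, 1699 and 1306 CPM against 2907, 2285 and 965 CPM (log2 0.49 ± 0.37, adjusted p = 0.700; 0.83 ± 0.14 and 0.0230 without replicate 3).

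Proliferation genes split along the same line. Of 32 DNA replication and E2F target genes tested, 21 lay above E7 in replicates 1 and 2 only (11.8% over all genes) and 6 passed without replicate 3, all higher (1.80%). None passed with it, and mean log2 levels of the list relative to E7 were 0.29, 0.36 and -0.27. Rrm2, a subunit of ribonucleotide reductase, was at 122, 146 and 114 CPM in E7 and at 218, 192 and 79.9 CPM in CD1dKOxE7. Ccne1 (cyclin E1) was at 32.9, 40.9 and 32.5 CPM against 55.5, 59.6 and 24.6 CPM, and the helicase subunit Mcm5 at 135, 138 and 145 against 167, 190 and 115 CPM. Of 24 mitosis genes, 16 lay above E7 in replicates 1 and 2 only (11.8%) and 3 passed without replicate 3 (1.80%), among them Top2a at 215, 243 and 239 CPM against 316, 292 and 213 CPM. Mki67, which marks cycling cells, was at 377, 436 and 435 CPM against 539, 481 and 332 CPM (log2 0.11 ± 0.17, adjusted p = 0.864; 0.29 ± 0.09 and 0.117 without replicate 3). The order of the 3 libraries was that of the E7 transgene, high in replicates 1 and 2 and lowest in replicate 3, and of the keratinocyte marker sum. The part of these levels in the result was not tested. Cdkn2a, which rises when the retinoblastoma protein is lost, was at 7.17, 6.39 and 5.02 CPM against 5.14, 4.58 and 7.53 CPM and did not pass.

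Skeletal muscle genes were lower in CD1dKOxE7. Of 21 tested, 17 lay below E7 in all 3 libraries (8.48% over all genes), the median log2 difference was -1.003, and -1.37 without replicate 3. None passed 3 against 3 and 14 passed without replicate 3, all lower (1.91% over all genes). Ckm, the muscle creatine kinase, was at 78.1, 74.0 and 76.8 CPM in E7 and at 15.0, 20.8 and 51.9 CPM in CD1dKOxE7. The fast-fibre actinin Actn3 was at 44.9, 52.3 and 47.7 CPM against 12.4, 12.6 and 21.9 CPM, and the calcium buffer Pvalb at 63.6, 58.2 and 58.8 against 9.95, 15.1 and 39.1 CPM. Ryr1, the calcium release channel, came closest to passing 3 against 3 (44.9, 48.3 and 45.9 against 29.5, 29.7 and 29.6 CPM; log2 -0.65 ± 0.08, adjusted p = 0.0697). The light chain Myl1 was at 58.1, 60.9 and 79.1 CPM against 33.3, 32.6 and 41.2 CPM, and skeletal actin Acta1 at 329, 395 and 438 against 116, 137 and 252 CPM. Of the myosin heavy chains, Myh4 of fast fibres was at 216, 164 and 115 CPM against 10.2, 26.3 and 143 CPM, and Myh2 at 23.3, 45.0 and 49.7 against 61.9, 82.4 and 41.2 CPM, with overlap and neither past the threshold in either fit. The 4 muscle markers summed to 614 to 770 CPM in E7 and to 205, 245 and 467 CPM in CD1dKOxE7. Muscle lies under ear skin, and how much of it a graft held was not tested.

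Dermal matrix genes had a median log2 difference of -0.39, and -0.64 without replicate 3. Of 23 tested, 4 lay below E7 in all 3 libraries (8.48% over all genes) and 10 in replicates 1 and 2 only (10.8%). With all 6 libraries none passed, and 4 passed without replicate 3, all lower (1.91%). Col1a1 was at 3977, 4227 and 5196 CPM in E7 and at 1752, 2214 and 3282 CPM in CD1dKOxE7 (log2 -0.89 ± 0.24, adjusted p = 0.322; -1.18 ± 0.15 and 0.00793 without replicate 3). Pdgfrb, a receptor of fibroblasts and pericytes, was at 105, 96.3 and 119 CPM against 58.2, 70.0 and 70.9 CPM, and elastin (Eln) at 820, 511 and 563 against 304, 384 and 196 CPM. The imprinted growth regulator H19 was at 86.8, 85.1 and 76.8 CPM against 24.9, 32.1 and 56.3 CPM, and the imprinted RNA Meg3 at 319, 317 and 292 against 139, 158 and 331 CPM, both past the threshold without replicate 3 (log2 -1.55 ± 0.12 and -1.06 ± 0.09).

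Hox genes, which hold the positional identity of skin along the body, were low in replicates 1 and 2. Of 19 tested members of groups 4 to 10, 13 lay below E7 in those libraries only (10.8% over all genes) and 1 in all 3 (8.48%). With all 6 libraries none passed, and 7 passed without replicate 3, all lower (1.91%). Hoxc6 was at 7.67, 8.24 and 6.15 CPM in E7, at 1.31, 1.70 and 11.4 CPM in CD1dKOxE7, and at 7.13, 4.79 and 5.13 CPM in the CD1dKOxE7 grafts at 14 dpg. Hoxb8 was at 5.66, 4.26 and 4.14 CPM against 0.98, 0.39 and 4.76 CPM. Replicate 3 lay within the E7 range for Hoxb8 and above it for Hoxc6. At 14 dpg Hoxb8 was at 5.85, 1.20 and 2.07 CPM in E7 grafts and at 4.00, 11.6 and 1.17 CPM in C57BL/6 grafts. Libraries of 1 donor thus differed widely there too. The Hox set was chosen after its values were seen.

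Immediate early genes respond within minutes to growth factors and handling, and were listed together with heat shock genes. Of 18 tested members of that joint list, 10 lay above E7 in all 3 libraries (7.66% over all genes) and 1 below (8.48%). Another 6 lay above E7 in replicates 1 and 2 only (11.8%). None passed 3 against 3 and 6 passed without replicate 3, all higher (1.80%). Zfp36, which destabilises cytokine mRNAs, was at 97.4, 100 and 104 CPM against 135, 171 and 140 CPM. Ier3 was at 34.2, 35.1 and 29.8 CPM against 60.4, 45.1 and 48.9 CPM. Fos, a subunit of AP-1, was at 44.1, 38.4 and 47.8 CPM against 77.9, 234 and 193 CPM (log2 1.95 ± 0.38, adjusted p = 0.239; 1.83 ± 0.57 and 0.216 without replicate 3), and passed only when replicate 1 was left out (log2 2.30, adjusted p = 0.0165). Arc was at 91.7, 105 and 96.3 CPM against 211, 193 and 69.9 CPM, high in replicates 1 and 2 only.

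**Figure D4:**
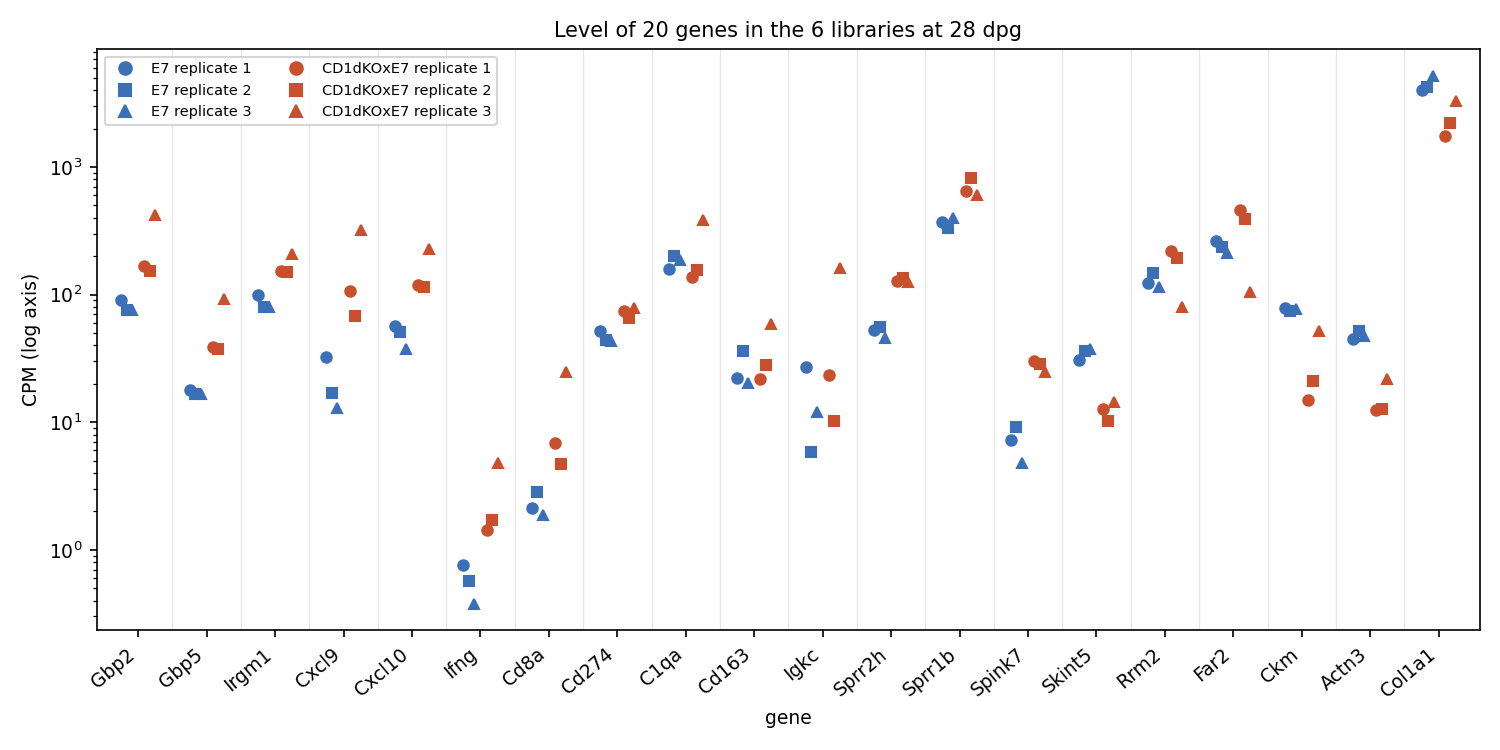
Level in CPM (y axis, log scale) of 20 genes (x axis) in the 6 libraries; blue marks E7, orange CD1dKOxE7, and circles, squares and triangles are replicates 1, 2 and 3. For Gbp2 to Cxcl10 all 3 CD1dKOxE7 libraries lie above E7 with replicate 3 highest, for C1qa, Cd163 and Igkc replicate 3 alone is high, for Rrm2 and Far2 it is lowest, and for Ckm and Actn3 it lies between E7 and replicates 1 and 2.

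Genes near the altered locus were examined by distance from Cd1d1. Of 140 other genes tested within 5 Mb, none passed 3 against 3, 9 passed without replicate 3 (6.43%) and 30 did not overlap between groups (21.4%). The same shares were 3.72 and 16.0% on other chromosomes, and 2.79 and 16.8% on chromosome 3 farther than 20 Mb away. From 10 to 20 Mb away, 4 of 94 genes passed without replicate 3 (4.26%) and 13 did not overlap (13.8%). The 9 genes went both ways. Rps3a1 (above), Tpm3, Arhgef11 and Pear1 were lower, and Etv3l, Tmem154, Crabp2, Cks1b and Tmem79 higher. Tpm3, a cytoskeletal tropomyosin 3.06 Mb away, was at 198, 217 and 212 CPM in E7 and at 100, 95.1 and 196 CPM in CD1dKOxE7, and at 194, 184 and 203 CPM in the CD1dKOxE7 grafts at 14 dpg. Crabp2, a retinoic acid carrier, was at 96.4, 91.1 and 68.9 CPM against 137, 129 and 138 CPM. Etv3l was at 2.26, 0.57 and 1.25 CPM against 6.67, 4.72 and 2.77 CPM. Sprr2h, Sprr1b, Sprr2g and Sprr1a lie 5.36 to 5.47 Mb from Cd1d1, and Flg2 6.19 Mb. Sprr2a1 and Sprr2a2, which overlapped E7, lie 5.20 and 5.24 Mb away. All are in the epidermal differentiation complex on the same chromosome. Sequence differences carried along with a targeted allele and effects of the donor cannot be told apart with these groups.

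**Figure D5:**
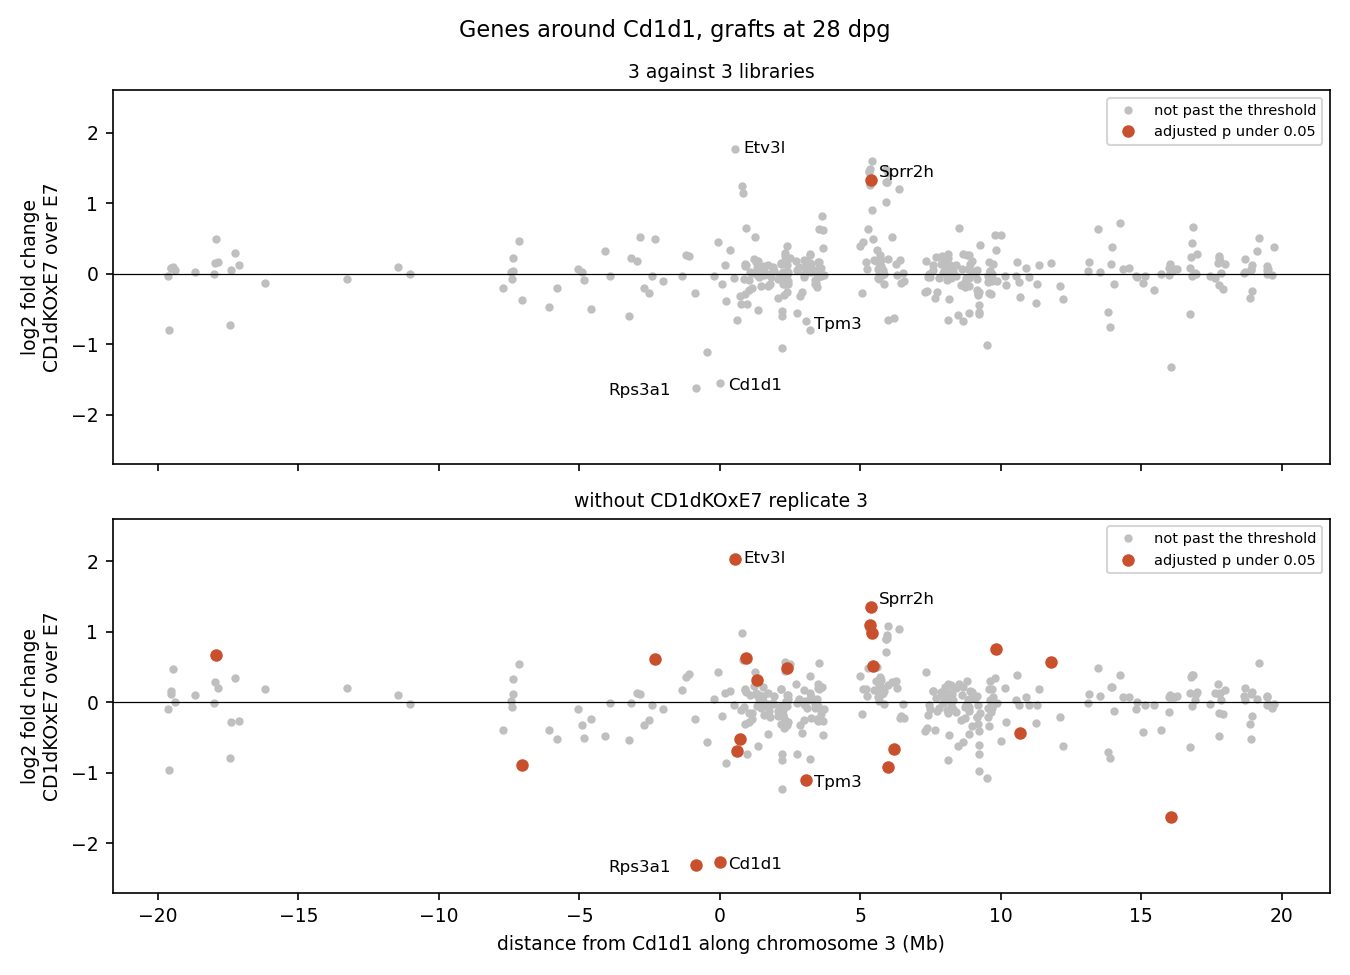
Log2 fold change of CD1dKOxE7 over E7 (y axis) of genes within 20 Mb of Cd1d1 by distance along chromosome 3 (x axis, Mb), for 3 against 3 libraries (top) and without CD1dKOxE7 replicate 3 (bottom); orange points passed at an adjusted p below 0.05. Sprr2h passes in both panels (1.33 and 1.35), and Cd1d1 and Rps3a1 only in the lower one (-2.26 and -2.30).

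The difference between donors was also set against that at 14 dpg for 8 panel genes, in a fit of all 18 graft libraries. It differed for Mki67 (by 0.94 ± 0.22 log2 units, adjusted p = 0.0126). For Cd1d1 (-1.42 ± 0.45, adjusted p = 0.0518), Cd1d2 (-1.53 ± 0.50, adjusted p = 0.0543) and the transgene (1.20 ± 0.39, adjusted p = 0.0663) it did not pass. For Ifng the donor difference was 3.43 at 14 dpg and 2.17 at 28 dpg, and the change between days did not pass (adjusted p = 0.394), nor did it for Cdkn2a, Ido1 and Arg1 (adjusted p = 0.343 to 0.920). Cd1d1 at 14 dpg was at 13.4, 17.2 and 11.3 CPM in CD1dKOxE7 and at 15.2, 14.2 and 16.8 CPM in E7, 2 ranges that overlapped.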

How the data were processed

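RNA from mouse ear skin and skin grafts was extracted with Trizol and RNeasy columns and made into TruSeq RNA v2 libraries, per the labels' protocols. FastQC, Trimmomatic and the mm10 build are named in the submitters' processing notes; which aligner, counter, annotation and strand setting were used is not known from these sources. The values are raw counts per Entrez gene, deposited by the authors 1 file per library. Symbols and coordinates came from RefSeq, which matched 25275 of 27180 IDs, and unmatched IDs held 1.105 to 1.504% of counts.

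The comparison of 3 against 3 libraries was fitted with edgeR 4.0.16 (R 4.3.3): filterByExpr (minimum count 10, total 15), TMM factors, robust quasi-likelihood test, Benjamini-Hochberg adjustment over all genes tested, and a threshold of 0.05 with no fold limit. CPM used the TMM factors of all 18 graft libraries, and log2 CPM a prior count of 2. The SE of a log2 difference was its size divided by the square root of F. In text, "passed" means past this threshold, and "without replicate 3" is the same fit on 5 libraries. The scripts were tested on simulated data. The named genes were a panel of 8, the strongest calls, up to 3 members of each of 12 lists by smallest p-value, and non-overlapping genes within 5 Mb of Cd1d1; other named genes were chosen after their values were seen. Members and lists were chosen with earlier results of these data known. The alternatives (15) changed the normalization, the filter, the tool (DESeq2 1.42.0, limma 3.58.1) and the libraries fitted, or added a replicate block. A fold limit was applied besides, to the counts of genes past the threshold only.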

Additional observations from a re-analysis of the deposited data

Results flagged for a closer look

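The difference in Mki67, a marker of cycling cells, between CD1dKOxE7 and E7 grafts was not the same at the 2 days. At 14 dpg the gene was at 350, 330 and 381 CPM in CD1dKOxE7 and at 641, 653 and 589 CPM in E7, a log2 difference of -0.83. In the same libraries the E7 transgene was at 20.1, 17.5 and 23.2 CPM against 33.7, 40.4 and 38.6 CPM (log2 -0.90), and its part in the Mki67 values was not tested. At 28 dpg the log2 difference was 0.12, with overlapping libraries. The difference between days was 0.94 ± 0.22 log2 units by edgeR's quasi-likelihood test in the fit of 18 graft libraries (adjusted p = 0.0126).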

How the results depend on the processing

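The count of genes past the threshold (3, of which 2 rose and 1 fell) depended on the library left out and on the tool. Leaving out 1 library at a time gave 0 to 575 genes, 0 to 279 that rose and 0 to 296 that fell, the lowest without E7 replicate 2 and the highest without CD1dKOxE7 replicate 3. With no filter on low counts 22 genes passed (10 rose, 12 fell), with DESeq2 200 (114 and 86), with limma voom and sample quality weights 264 (97 and 167), with all 18 graft libraries 34 (12 and 22), and with those less CD1dKOxE7 replicate 3 304 (142 and 162). A log2 limit of 1 left the same 3 genes. The replicate block also gave 3 genes, 2 that rose and 1 that fell. Deviations from the group mean correlated at 0.086, 0.155 and 0.253 between same-numbered libraries, and at -0.261 to 0.171 between the others. The highest value, 0.253, was that of replicate 3 with replicate 3. Replicate 3 of each group correlated negatively with replicates 1 and 2 of the other (-0.261 to -0.123). Whether the numbers pair libraries was not settled, and the main fit did not pair them. Cd1d1 was at -1.54 with DESeq2 (adjusted p = 0.0195), -2.15 with limma voom (0.00838), -2.26 with 18 libraries less replicate 3, and -2.26 to -1.26 over libraries left out. The transgene was at 0.12 to 0.61 over libraries left out.

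Of 114 named genes, 10 changed sign under at least 1 alternative, none of them past the threshold with all 6 libraries. Under limma voom and under 18 libraries less replicate 3 these were Prf1 (-0.70 and -0.93), Ighm (-0.14 and -0.19), Csf1r (-0.15 and -0.25), C1qa (-0.20 and -0.30), Cd163 (-0.027 and -0.068) and Mrc1 (-0.32 and -0.55). Over libraries left out, Prf1 ranged from -0.93 to 0.65, Ighm from -0.20 to 0.70, Csf1r from -0.26 to 0.35, C1qa from -0.31 to 0.57, Cd163 from -0.071 to 0.76, Mrc1 from -0.55 to 0.60, Cdkn2a from -0.35 to 0.035, Mki67 from -0.031 to 0.29, Krt14 from -0.016 to 0.13 and Krt1 from -0.11 to 0.38. The causes were not tested. Counts of 3 in a library, 0.325 to 0.434 CPM, limit what can be seen of genes as low as Ifng and Cd1d2.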
